A study of Mus musculus with 45 samples.

Results

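The genes described here build the inhibitory synapse: the subunits of the GABA-A, GABA-B and glycine receptors, the enzymes that make and break down GABA, the transporters that load it into vesicles or set the chloride gradient, and the proteins that anchor and traffic the receptors. Of 30 genes named by symbol, 28 had at least 1 probeset annotated with that symbol alone, out of 18193 genes measured in this way. These 28 genes were covered by 66 probesets, 22 of them by several and 6 by 1. Each gene is represented by its probeset with the highest mean over all arrays, called its brightest probeset below, and the other probesets are given where they differed. Gabbr2, which encodes the second subunit of the GABA-B receptor, had no probeset under that symbol, and Kctd12, an auxiliary protein of that receptor, was annotated only together with another gene, so neither was analysed here.

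GABA-A and glycine receptors are pentameric chloride channels, and in the adult brain their opening usually inhibits the cell. Subunit composition sets where a GABA-A receptor sits and which drugs act on it, receptors with a delta subunit lying mostly outside the synapse. Medium spiny neurons, the principal cells of the nucleus accumbens, are themselves GABAergic, so that this tissue carries both the synthesis genes and the receptor genes at once. Ethanol is known to act on GABA-A and glycine receptors.

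RNA of the nucleus accumbens (NAC) was measured on 45 mouse expression arrays, 1 per adult male C57BL/6J mouse. CIE mice (chronic intermittent ethanol) went through 4 cycles of ethanol vapor (10 to 13 mg/l in the chamber air, 16 h a day for 4 days) with 7 d between cycles, and each cycle began with injections of 1.6 g/kg ethanol and 1 mmol/kg pyrazole, which blocks alcohol dehydrogenase. Ctrl mice had saline in place of ethanol and air in place of vapor, so pyrazole was given in both groups. Tissue was collected at 0 h, 8 h, 72 h or 7 d counted from the end of the last session, from 6, 5, 5 and 6 CIE mice and from 6, 5, 6 and 6 Ctrl mice. Blood ethanol in this model is thus stabilised by an enzyme inhibitor, and only males were studied.

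Values are log2 expression on a scale where the array medians lay between 6.94 and 6.96. Changes are differences of group means at 1 time, CIE minus Ctrl, in log2 units, with the standard error (SE) and 95% interval from limma fitted to all 45037 probesets, and a change passed at an adjusted p of 0.01 or less over all probesets of that comparison. Arrays have no count depth, and their number limits the precision. The arrays held the markers of medium spiny neurons at a high level, with a mean over 12 genes of 11.49 to 12.24 in CIE at 0 h and 11.91 to 12.22 in Ctrl at 0 h. The mean over 9 markers of cortical pyramidal neurons varied far more, lying between 7.22 and 9.70 in CIE and between 7.03 and 9.05 in Ctrl at 0 h, and CIE replicates 5, 67 and 72 had the 3 highest values of this time. The mean over 8 microglial markers was 9.06 ± 0.179 in CIE and 9.45 ± 0.16 in Ctrl at 0 h (SD, n = 6 each).

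No brightest probeset of the 28 genes passed at any time. At 0 h this was 0 of 28, beside 1.93% of all genes, 233 of which were called higher and 119 lower. At 8 h it was 0 of 28, beside 0.0824% of all genes, and at 72 h and 7 d it was 0 of 28, beside 0% of all genes. Of the 66 probesets, 0 passed at 8 h, beside 0.0622% of all probesets. When the threshold was 0.05, 1 of the 28 was called at 0 h, Gad1, beside 4.81% of all genes, and none at 8 h, 72 h or 7 d, beside 0.242%, 0% and 0%. Unadjusted p values under 0.05 came to 7 genes at 0 h (2 higher, 5 lower), beside 18.4% of all genes, to 2 at 8 h (both higher), beside 8.04%, and to 0 at 72 h and 7 d, beside 4.56% and 1.97%. The CIE and Ctrl arrays overlapped for each of the 28 genes at every time. The share of all genes without overlap was 1.63% at 0 h, 2.1% at 8 h, 0.742% at 72 h, then 0.0824% at 7 d. Shares this low do not set the 28 genes apart from the rest.

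The changes of these genes were small in the median. The median change over the 28 genes was −0.02 at 0 h, 0.00096 at 8 h, 0.017 at 72 h, then −0.017 at 7 d, beside 0.017, 0.0035, 0.032 and −0.0026 for all genes. The sign was negative for 17 of the 28 genes at 0 h, 14 at 8 h, 11 at 72 h, then 17 at 7 d, beside 43.1%, 48.3%, 32.4% and 51.8% of all genes. The 95% interval lay within 0.5 log2 units of 0 for 22 genes at 0 h, 25 at 8 h, 24 at 72 h, then 25 at 7 d, beside 91.5%, 93.6%, 94.3% and 96.1% of all genes. It lay within 1 log2 unit for all 28 at every time. Within the hybridization sets, which are groups of arrays inferred from shared values to have been hybridized together and which held at most 1 array of a group, CIE minus Ctrl had 1 sign in every set for 4 of the 28 genes at 0 h, 1 at 8 h, 2 at 72 h, then 0 at 7 d, beside 11.3%, 8.9%, 7.12% and 1.45% of all genes. These were Gabra2, Gabrb1, Gad1 and Gabarap at 0 h, Gad2 at 8 h, and Gabra3 and Glra2 at 72 h. In bulk tissue, fewer cells of a type and less RNA per cell cannot be told apart.

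**Figure D1:**
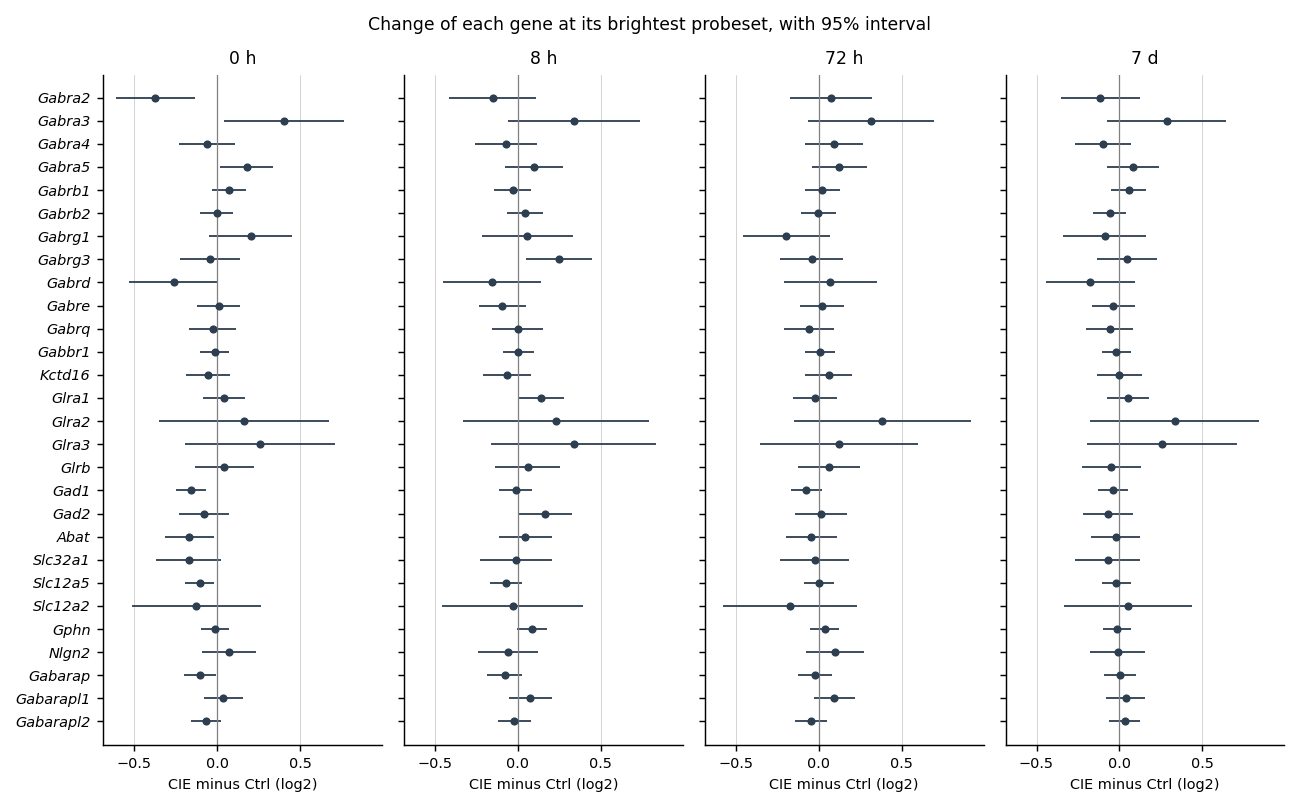
Change in the log2 level (CIE minus Ctrl) of the brightest probeset of each of the 28 genes, grouped by role, at 0 h, 8 h, 72 h and 7 d, with 95% intervals from limma as bars. No interval extends beyond 1 log2 unit from 0, and the widest belong to Glra2, Glra3, Gabra3 and Slc12a2.

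Among the 11 GABA-A receptor subunits, changes at 0 h spread from −0.37 for Gabra2 to 0.40 for Gabra3, with 6 negative and 5 positive. Gabra2 encodes the alpha2 subunit, a synaptic subunit of forebrain neurons. Its brightest probeset (1455444_at) had a lowest value of 9.22, a median of 9.42 and a highest value of 9.85 in the 6 CIE arrays at 0 h, against 9.48, 9.82 and 10.20 in the 6 Ctrl arrays. The groups overlapped, with 4 of the 6 CIE arrays below the lowest Ctrl array. The change was −0.37 (SE 0.118, interval −0.61 to −0.13, adjusted p = 0.0647), which did not pass.

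Another Gabra2 probeset, 1443865_at, was the only one of the 66 to pass at 0 h, beside 1.59% of all 45037 probesets. It had a lowest value of 8.62, a median of 8.69 and a highest value of 8.87 in CIE arrays at 0 h, against 8.96, 9.08 and 9.48 in Ctrl arrays, so that the groups did not overlap. The level fell in CIE by 0.42 on the log2 scale (SE 0.0962, interval −0.61 to −0.22, adjusted p = 0.00668), or to 0.748 of the Ctrl level. Both Gabra2 probesets were lower in CIE in 5 of the 5 hybridization sets that held both groups, with differences of −0.82 to −0.17 for 1443865_at and −0.85 to −0.19 for 1455444_at. With these sets as a block, the change of 1443865_at was −0.42 and no longer passed (adjusted p = 0.0351). Ctrl replicate 20, which was in no set, adds nothing to that fit. The effects of blocking and of losing that array cannot be told apart there. Leaving out single arrays gave changes of −0.45 to −0.35, and the call was lost in 7 of 12 cases, when Ctrl replicates 20, 30 or 48 or CIE replicates 5, 26, 67 or 72 were removed. The change was smallest, at −0.35, without Ctrl replicate 30 (adjusted p = 0.0347).

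For both of these Gabra2 probesets the changes at the later times were nearer to 0. For 1443865_at the mean was 8.71 ± 0.0876 in CIE and 9.13 ± 0.197 in Ctrl at 0 h (SD, n = 6 each), 9.18 ± 0.2 in CIE and 9.23 ± 0.217 in Ctrl at 8 h (n = 5 each), 9.08 ± 0.124 in CIE and 9.08 ± 0.124 in Ctrl at 72 h (n = 5 CIE and 6 Ctrl), and 9.14 ± 0.252 in CIE and 9.0 ± 0.0806 in Ctrl at 7 d (n = 6 each). Within CIE mice the probeset changed over time (F test, adjusted p = 0.00351, beside 2.27% of probesets called), standing 0.47 higher at 8 h than at 0 h (adjusted p = 0.00641), 0.37 higher at 72 h (adjusted p = 0.0279) and 0.43 higher at 7 d (adjusted p = 0.00521). Within Ctrl mice the same test gave an adjusted p of 0.862, beside 0.233% called. The difference between the 7 d and 0 h changes was 0.56 (SE 0.136, adjusted p = 0.0353), and it did not pass 0.01, nor did the differences for 8 h and 72 h (adjusted p = 0.727 and 0.286). The brightest probeset had changes of −0.15 at 8 h (−0.41 to 0.11), 0.07 at 72 h (−0.18 to 0.32) and −0.12 at 7 d (−0.35 to 0.12).

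**Figure D2:**
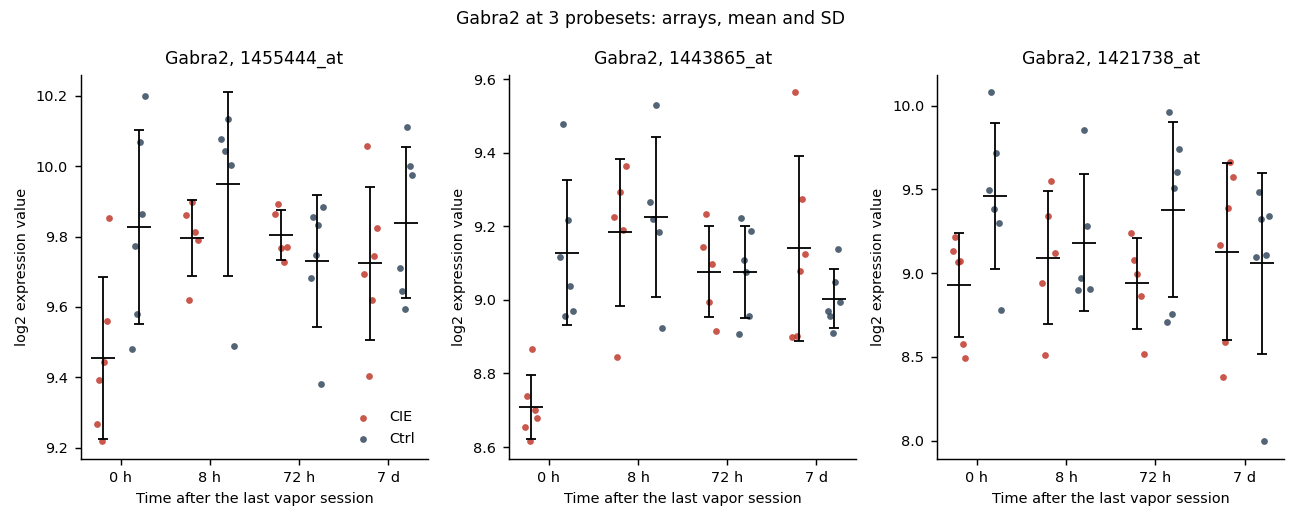
Log2 level of 3 Gabra2 probesets in each of the 45 arrays at 0 h, 8 h, 72 h and 7 d, CIE on the left and Ctrl on the right of each pair, with points for arrays and bars for mean ± SD. The 6 CIE arrays of 1443865_at at 0 h lie between 8.62 and 8.87, below every Ctrl array of that time, whereas 1421738_at is widely scattered in all groups.

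The other Gabra2 probesets did not settle the level of the gene. Probeset 1421738_at had a change of −0.53 at 0 h (interval −1.03 to −0.04, adjusted p = 0.257), −0.09 at 8 h, −0.44 at 72 h, then 0.07 at 7 d, with CIE arrays of 0 h between 8.49 and 9.22 and Ctrl arrays between 8.78 and 10.08. Its difference at 0 h was negative in 5 of 5 hybridization sets (−0.95 to −0.16). Probesets 1449807_x_at and 1420299_at had changes of −0.06 and 0.03 at 0 h. Their means of 4.38 and 3.52 lay well below the array medians, so these changes say little about the gene. At 72 h 1420299_at had a change of 0.17 (unadjusted p = 0.0181, adjusted p = 0.673).

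Gabrg3 encodes the gamma3 subunit, a less abundant relative of the gamma subunit that couples most GABA-A receptors to benzodiazepines. Its probesets disagreed with each other. The brightest, 1439717_at, read 8.96, 8.64, 8.71, 8.67 and 8.81 in the CIE arrays at 8 h, against 8.48, 8.60, 8.77, 8.44 and 8.28 in the Ctrl arrays. Of the 5 CIE arrays, 2 lay above every Ctrl array and 3 overlapped with them, with a change of 0.25 (SE 0.0982, interval 0.05 to 0.44, adjusted p = 0.466). Its changes were −0.04 at 0 h, −0.04 at 72 h and 0.05 at 7 d.

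Probeset 1445846_at of the same gene had a negative change at all 4 times. Its lowest, median and highest values at 0 h were 7.57, 7.75 and 7.86 in CIE arrays, against 7.55, 8.41 and 8.90 in Ctrl arrays. At 8 h it read 7.56, 7.48, 7.31, 7.43 and 7.48 in CIE arrays, against 7.69, 7.24, 8.22, 8.08 and 7.45 in Ctrl arrays. At 72 h the CIE arrays read 7.36, 7.39, 7.73, 7.40 and 7.42, and the Ctrl arrays had a lowest value of 7.64, a median of 8.09 and a highest value of 8.38. The CIE arrays of every time were narrowly grouped, with SDs of 0.0938 to 0.154, and the Ctrl arrays were spread, with SDs of 0.274 to 0.516. At 7 d the lowest, median and highest values were 7.31, 7.52 and 7.68 in CIE arrays, against 7.18, 8.39 and 8.54 in Ctrl arrays.

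The changes of 1445846_at were −0.61 at 0 h (SE 0.175, adjusted p = 0.0377), −0.29 at 8 h (SE 0.192, adjusted p = 0.831), −0.61 at 72 h (SE 0.184, adjusted p = 0.673), then −0.70 at 7 d (SE 0.175, adjusted p = 0.99991), none of which passed. The F test over the 4 CIE minus Ctrl comparisons passed (adjusted p = 0.00197, beside 0.901% of all probesets), and it did so after each of the 45 arrays was left out (adjusted p = 2.29e-05 to 0.00455), but not with the hybridization sets as a block (adjusted p = 0.0115). Within sets the difference was negative in 4 of 5 at 0 h, 3 of 5 at 8 h, 4 of 5 at 72 h and 5 of 6 at 7 d. At 0 h the change reached −0.77 and passed (adjusted p = 0.00456) without Ctrl replicate 78, the lowest Ctrl array. The dimmer probesets 1444549_at and 1422187_at had changes of −0.33 and −0.03 at 0 h, −0.00 and −0.17 at 8 h, −0.43 and 0.00 at 72 h, and −0.30 and 0.03 at 7 d, with no adjusted p below 0.269.

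**Figure D3:**
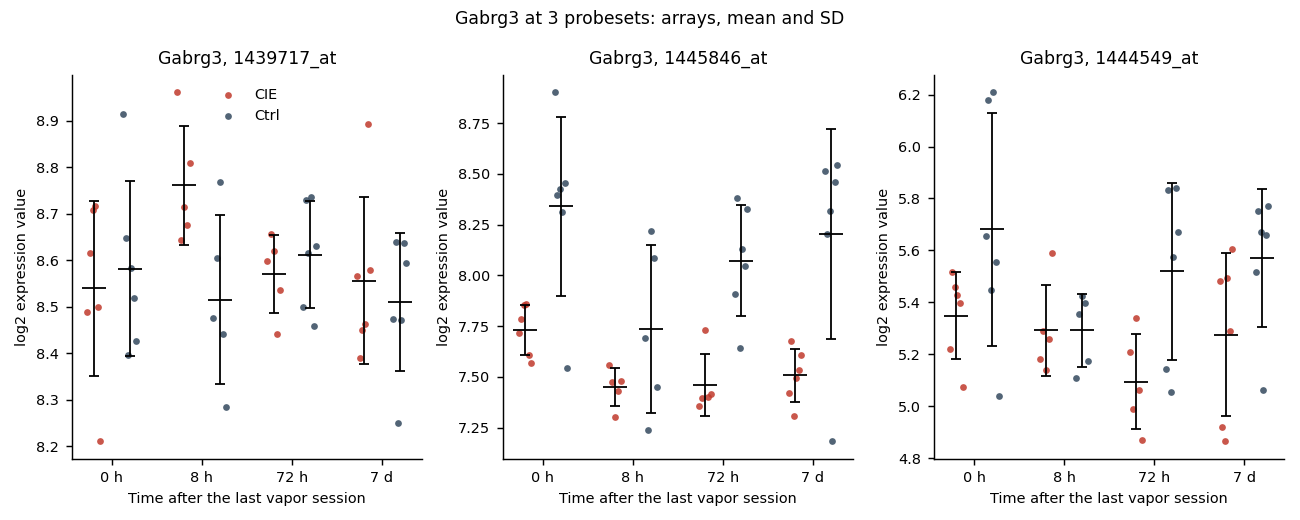
Log2 level of 3 Gabrg3 probesets in each array at 0 h, 8 h, 72 h and 7 d, CIE left and Ctrl right, with mean ± SD. Probeset 1445846_at is low and narrowly grouped in CIE at every time (7.31 to 7.86) and spread in Ctrl (7.18 to 8.90), whereas the brightest probeset, 1439717_at, does not separate the groups.

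Gabra3, the alpha3 subunit, had the largest positive change at 0 h among the 28 genes. The lowest, median and highest values were 9.51, 10.33 and 10.64 in CIE arrays, against 9.18, 9.73 and 10.24 in Ctrl arrays, with a change of 0.40 (SE 0.179, interval 0.04 to 0.77, adjusted p = 0.23). At 8 h it read 10.07, 10.51, 10.05, 10.21 and 9.90 in CIE arrays, against 9.57, 10.11, 9.62, 9.74 and 10.00 in Ctrl arrays. The groups overlapped at each time, and the changes of 0.34 at 8 h (−0.06 to 0.74), 0.32 at 72 h (−0.06 to 0.70) and 0.28 at 7 d (−0.08 to 0.65) were of similar size, without passing (adjusted p = 0.761, 0.732 and 0.99991). At 72 h the difference was positive in 5 of 5 sets (0.17 to 0.63). Gabra3 followed the balance of medium spiny and cortical markers closely, as described below, and with that balance as a covariate its changes were 0.18, 0.28, 0.08 and 0.18 at the 4 times.

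Gabra5, the alpha5 subunit, which is found largely outside synapses, had CIE values of 9.28, 9.49 and 9.69 (lowest, median and highest) at 0 h, against Ctrl values of 9.09, 9.33 and 9.51. The change was 0.18 (interval 0.02 to 0.34, adjusted p = 0.225), followed by 0.10 at 8 h, 0.12 at 72 h (adjusted p = 0.759) and 0.08 at 7 d. Gabrd, the extrasynaptic delta subunit, had values of 10.28, 10.55 and 11.14 in CIE and 10.62, 10.94 and 11.03 in Ctrl at 0 h. Its change was −0.26 at 0 h (−0.53 to 0.01, adjusted p = 0.318), −0.16 at 8 h, 0.07 at 72 h, then −0.18 at 7 d (−0.44 to 0.09). These groups overlapped, and none of the differences passed.

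The remaining subunits had no adjusted p below 0.05 at any time. Their changes at 0 h were −0.06 for Gabra4 (alpha4, the usual partner of delta in the striatum; interval −0.23 to 0.11), 0.07 for Gabrb1 (beta1; −0.03 to 0.17) and −0.003 for Gabrb2 (beta2; −0.10 to 0.10). A dimmer Gabrb2 probeset, 1428205_x_at, had a change of −0.18 at 0 h (unadjusted p = 0.046, adjusted p = 0.29), and a dimmer Gabrb1 probeset, 1443834_at, one of −0.16 at 7 d, where the brightest had 0.06 (adjusted p = 0.99991 for both). Gabrg1, the gamma1 subunit, had a change of 0.20 (−0.05 to 0.45, adjusted p = 0.442), and its second probeset, 1427227_at, one of 0.26 (0.06 to 0.46, adjusted p = 0.133), followed by changes of −0.19 for both at 72 h. Gabre and Gabrq, the epsilon and theta subunits, were measured below the array median, with means of 4.86 in CIE and 4.85 in Ctrl for Gabre and 4.28 in CIE and 4.30 in Ctrl for Gabrq at 0 h.

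Subunit genes that are neighbours in the genome had changes of mixed sign. Gabrg1, Gabra2, Gabra4 and Gabrb1 lie in 1 cluster on chromosome 5, with only 1 other protein-coding gene among them in the RefSeq table of GRCm38.p6, and their changes at 0 h were 0.20, −0.37, −0.06 and 0.07. Gabrg3 and Gabra5 are neighbours on chromosome 7, with changes of −0.04 and 0.18. Gabre, Gabra3 and Gabrq lie together on the X chromosome, with changes of 0.01, 0.40 and −0.03.

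For the GABA-B receptor, which acts through G proteins, Gabbr1 was the subunit measured. Its mean was 12.91 ± 0.082 in CIE and 12.92 ± 0.0905 in Ctrl at 0 h (SD, n = 6 each), a change of −0.01 (−0.10 to 0.07). At this brightest probeset its 8 group means spanned 0.0304 log2 units, the smallest span of the 28 genes. The group means of the dimmer Gabbr1 probesets 1437188_at and 1422051_a_at spanned 0.196 and 0.247. Kctd16, which encodes an auxiliary subunit of the GABA-B receptor, was below the array median and had a change of −0.05 (−0.19 to 0.08). At the brightest probesets, no adjusted p for either gene was below 0.762 at 0 h.

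All 4 glycine receptor genes had positive changes at 0 h and 8 h, beside 56.9% and 51.7% of all genes, and 3 of 4 at 72 h and 7 d, beside 67.6% and 48.2%, and none passed. The sign of Glrb at 0 h turned to −0.013 with the sets as a block and to −0.015 with the marker index described below as a covariate, and that covariate also turned the sign of Glra2 and moved Glra3 to 0.08 at 0 h. Glra2, the alpha2 subunit, which is the main alpha subunit of the striatum, had lowest, median and highest values of 8.32, 9.06 and 9.66 in CIE arrays at 0 h, against 8.14, 8.81 and 9.68 in Ctrl arrays. Its spread within groups was the widest of the 28 genes (SD 0.455), and the changes were 0.16 (−0.35 to 0.67), 0.23 (−0.33 to 0.79), 0.38 (−0.15 to 0.92) and 0.33 (−0.18 to 0.84) at the 4 times. Its difference at 72 h was positive in 5 of 5 sets (0.04 to 0.97). Glra3, the alpha3 subunit, had changes of 0.26 (−0.20 to 0.71), 0.34, 0.12 and 0.26. Glrb, the beta subunit, which binds gephyrin, had a change of 0.04 at 0 h (−0.14 to 0.22).

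Glra1, the alpha1 subunit of spinal and brainstem receptors, was near the bottom of the scale. At 8 h it read 4.58, 4.42, 4.48, 4.49 and 4.49 in CIE arrays, against 4.62, 4.17, 4.46, 4.19 and 4.33 in Ctrl arrays, a change of 0.14 (interval 0.0001 to 0.28, adjusted p = 0.673). The groups overlapped, and the other Glra1 probeset, 1437139_at, had a change of −0.15 at 8 h. With the index as a covariate, the changes of Glra2 were −0.14, 0.15, 0.06 and 0.20 at 0 h, 8 h, 72 h and 7 d.

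GABA is made from glutamate by the decarboxylases GAD67, encoded by Gad1, and GAD65, encoded by Gad2, and broken down by GABA transaminase, encoded by Abat. Gad1 had the smallest adjusted p of the 28 genes at any time. It had lowest, median and highest values of 12.88, 12.98 and 13.06 in CIE arrays at 0 h, against 13.03, 13.14 and 13.20 in Ctrl arrays, and the groups overlapped only slightly. The change was −0.16 (SE 0.0449, interval −0.25 to −0.06, adjusted p = 0.0388), a level of 0.898 of Ctrl, which did not pass 0.01. Of the 66 probesets, 3 had an adjusted p of 0.05 or less at 0 h, beside 3.93% of all probesets, and Gad1 was 1 of them. Its difference was negative in 5 of 5 hybridization sets (−0.28 to −0.06), and with the sets as a block the adjusted p was 0.0524.

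At the later times the difference in Gad1 was smaller, with changes of −0.01 at 8 h (−0.11 to 0.09), −0.07 at 72 h (−0.17 to 0.02) and −0.04 at 7 d (−0.13 to 0.05). The second Gad1 probeset, 1416562_at, had changes of −0.36 (−0.66 to −0.07, adjusted p = 0.178), 0.09, −0.14 and 0.02. The change of Gad1 at 8 h, 72 h or 7 d was not shown to differ from that at 0 h (adjusted p = 0.891, 0.91 and 0.553).

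The brightest Gad2 probeset (1429589_at) had its largest change at 8 h, where it did not pass. It read 12.93, 12.84, 12.81, 12.67 and 12.84 in CIE arrays at 8 h, against 12.71, 12.70, 12.72, 12.59 and 12.56 in Ctrl arrays, so that 4 of 5 CIE arrays lay above every Ctrl array. The change was 0.16 (−0.002 to 0.33, adjusted p = 0.677) at 8 h, and −0.08 at 0 h, 0.01 at 72 h and −0.07 at 7 d. The difference at 8 h was positive in 5 of 5 sets (0.08 to 0.28). The other probeset, 1421978_at, had changes of −1.10, −0.30, −1.31 and −0.15, with intervals as wide as −2.45 to −0.17 at 72 h (adjusted p = 0.675) and arrays of Ctrl at 7 d between 7.73 and 11.11.

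Abat had values of 12.18, 12.44 and 12.63 in CIE and 12.41, 12.64 and 12.73 in Ctrl at 0 h (lowest, median and highest), a change of −0.17 (−0.31 to −0.02, adjusted p = 0.212). The later changes were 0.04, −0.04 and −0.02. Its dimmer probeset, 1422226_at, had a change of 0.03 at 0 h. The 3 enzyme genes thus all had negative changes at 0 h, beside 43.1% of all genes, and none passed. With the marker index as a covariate the changes at 0 h were −0.13 for Gad1, −0.0088 for Gad2 and −0.09 for Abat.

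Of the transporters, Slc32a1 encodes the vesicular transporter that loads GABA and glycine into synaptic vesicles. It had values of 11.21, 11.60 and 11.99 in CIE and 11.50, 11.75 and 11.87 in Ctrl at 0 h, a change of −0.17 (−0.37 to 0.02, adjusted p = 0.386), and later changes of −0.01, −0.02 and −0.07. Slc12a5 encodes KCC2, the potassium-chloride cotransporter that keeps chloride low in mature neurons. Its values were 12.87, 12.94 and 13.11 in CIE and 13.00, 13.05 and 13.15 in Ctrl at 0 h, with a change of −0.11 (SE 0.0426, −0.19 to −0.02, adjusted p = 0.178), −0.07 at 8 h (−0.17 to 0.02), 0.00 at 72 h and −0.02 at 7 d. The groups of both transporters overlapped at 0 h.

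Slc12a2 encodes NKCC1, which brings chloride into cells. Its change was −0.12 at 0 h (−0.51 to 0.26), −0.03 at 8 h, −0.17 at 72 h, then 0.05 at 7 d, all within wide intervals. The dimmer probeset 1417623_at had a change of −0.91 at 72 h (−1.79 to −0.03, unadjusted p = 0.0436, adjusted p = 0.682).

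**Figure D4:**
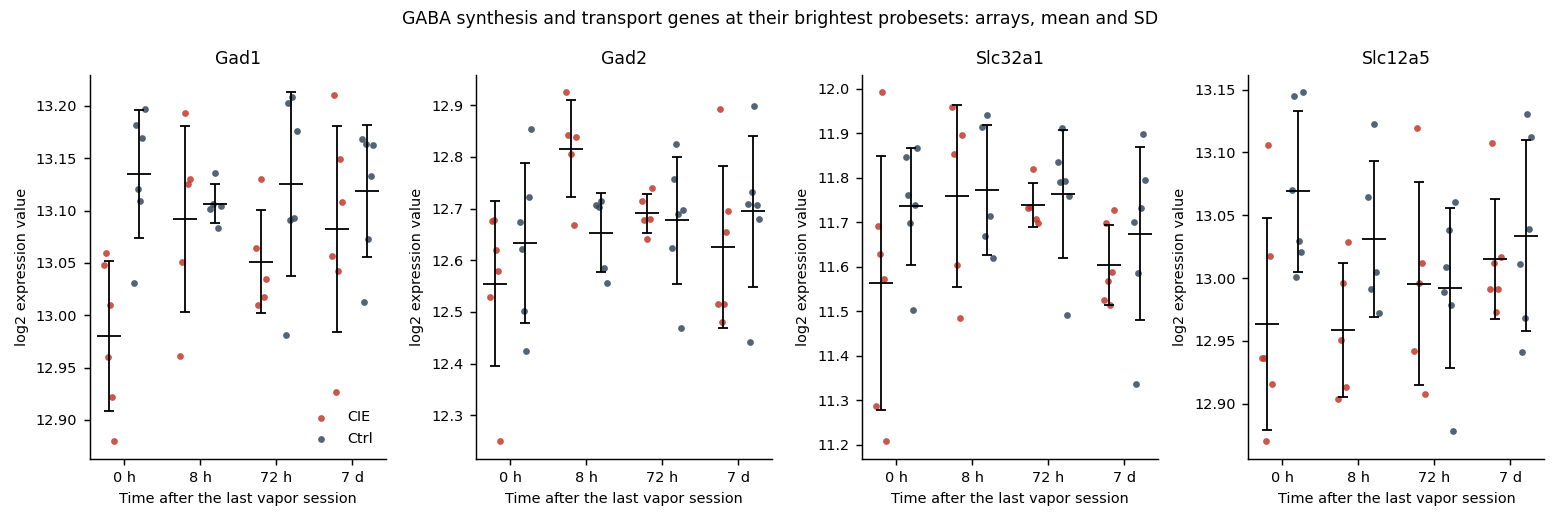
Log2 level of the brightest probesets of Gad1, Gad2, Slc32a1 and Slc12a5 in each array at 0 h, 8 h, 72 h and 7 d, CIE left and Ctrl right, with mean ± SD. Gad1 at 0 h has a mean of 12.98 in CIE and 13.13 in Ctrl, and Gad2 at 8 h one of 12.82 in CIE and 12.65 in Ctrl, with overlap in both.

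At their brightest probesets the 2 anchoring genes had small changes with narrow intervals. Gphn encodes gephyrin, the scaffold that holds glycine and GABA-A receptors under the synapse, and had the narrowest spread within groups of the 28 genes (SD 0.0648). Its change was −0.01 at 0 h (−0.10 to 0.07), 0.09 at 8 h (−0.01 to 0.18, adjusted p = 0.704), 0.04 at 72 h, then −0.02 at 7 d. Nlgn2 encodes neuroligin 2, the adhesion protein of inhibitory synapses, and had a change of 0.07 at 0 h (−0.09 to 0.24).

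Another Gphn probeset, 1430038_at, was the only one of that gene with an adjusted p below 0.05 in the F test over time within CIE. Its medians in CIE were 8.83, 8.98, 9.16 and 9.06 at 0 h, 8 h, 72 h and 7 d, against 9.06, 9.13, 9.25 and 9.16 in Ctrl. The F test over time within CIE gave an adjusted p of 0.0128, beside 2.27% of probesets that passed 0.01, and the 72 h level stood 0.39 above the 0 h level (adjusted p = 0.00332). Within Ctrl the 72 h level stood 0.21 above the 0 h level (adjusted p = 0.731), and the difference between the 72 h and 0 h CIE effects was 0.18 (SE 0.116, adjusted p = 0.81).

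The GABARAP family links receptors to trafficking along the cytoskeleton and also takes part in autophagy. Gabarap had a change of −0.11 at 0 h (−0.20 to −0.01, adjusted p = 0.244), with values of 11.87, 11.95 and 12.03 in CIE and 11.98, 12.06 and 12.11 in Ctrl. The changes at 0 h were 0.04 for Gabarapl1 (−0.08 to 0.15) and −0.07 for Gabarapl2 (−0.16 to 0.02). At 7 d all 3 lay between 0.001 and 0.04.

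No brightest probeset of the 28 genes passed an F test over time within Ctrl (0.313% of all genes passed), over time within CIE (3.07% passed) or over the 4 CIE minus Ctrl comparisons (1.03% passed), nor did any reach 0.05 in these 3 tests, beside 0.561%, 6.22% and 2.53% of all genes. Of the 66 probesets, 0, 2 and 1 reached 0.05, beside 0.426%, 4.72% and 2.33% of all probesets. No brightest probeset passed in the difference between the change at 8 h, 72 h or 7 d and that at 0 h, beside 0%, 0.0824% and 0.231% of all genes. At an unadjusted p under 0.05 the 3 F tests had 0, 3 and 3 of the 28, beside 7.61%, 19.4% and 13% of all genes. A sign kept at all 4 times was found in 8 of the 28 genes (28.6%) and in 18% of all genes. It was positive for Gabra3, Gabra5, Glra2, Glra3 and Gabarapl1 and negative for Gad1, Slc32a1 and Gabrq. These 4 changes come from different mice at each time, but within each time all genes share the same arrays.

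The spread between arrays of a group was of the same order as the differences between groups. The median SD within groups was 0.127 for the 28 genes and 0.127 for all genes, and the 8 group means of a gene spanned a median of 0.162 log2 units, under 0.3 in 23 genes and 0.3 or more in 5. For several genes this spread went with a marker index, the mean of 12 medium spiny neuron markers minus the mean of 9 cortical pyramidal neuron markers on each array. The index averaged 3.15 ± 1.26 in CIE and 3.85 ± 0.775 in Ctrl at 0 h (SD, n = 6 each), 3.6 ± 0.813 in CIE and 3.79 ± 0.85 in Ctrl at 8 h (n = 5 each), 3.62 ± 0.543 in CIE and 4.37 ± 0.564 in Ctrl at 72 h (n = 5 CIE and 6 Ctrl), and 3.36 ± 1.09 in CIE and 3.67 ± 0.809 in Ctrl at 7 d (n = 6 each). It was thus lower on average in CIE at every time, with overlap. Differences in the tissue sampled and in the expression of the markers within cells cannot be told apart here.

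The relation of each gene to the index was computed over the 45 arrays after the mean of each group was removed, with permutation tests of 100000 resamples, two-sided, whose smallest possible p is 1e-05, and p values were adjusted over all 18172 genes outside the index. At an adjusted p of 0.05 or less it was negative for 4 of the 28 genes, beside 12.1% of all genes, and positive for 9, beside 13%. That is 13 of 28, beside 25% of all genes, and 15 did not pass. The negative relations were those of Gabra3 (r = −0.88, rho = −0.89, p = 1e-05 for each, adjusted 0.000122 and 0.000128), Glra2 (r = −0.83, rho = −0.85, with the same p values), Glra3 (r = −0.55, rho = −0.54, p = 0.00016 and 0.00014, adjusted 0.00132 and 0.00124) and Glrb (r = −0.45, rho = −0.34, p = 0.00161 and 0.023, adjusted 0.00946 and 0.0838, so that rho did not pass). Arrays with more cortical relative to medium spiny marker signal thus held more of these subunit transcripts, 3 of the 4 being glycine receptor genes.

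The strongest positive relations were those of Abat (r = 0.79, rho = 0.77), Slc32a1 (r = 0.74, rho = 0.73), Gabra4 (r = 0.71, rho = 0.76), Gad2 (r = 0.67, rho = 0.72) and Gabrd (r = 0.67, rho = 0.70), each with p = 1e-05 for both coefficients, adjusted 0.000122 for r and 0.000128 for rho. Without the 2 arrays farthest from the median index, r was −0.88 for Gabra3, −0.84 for Glra2, −0.63 for Glra3, −0.40 for Glrb, 0.74 for Abat, 0.71 for Slc32a1, 0.69 for Gabra4, 0.64 for Gad2 and 0.76 for Gabrd. With the hybridization sets also removed, r was −0.88, −0.84, −0.57, −0.49, 0.82, 0.75, 0.74, 0.69 and 0.67 for the same genes in that order. The other 4 positive relations were weaker, with r of 0.46 for Gphn, 0.45 for Slc12a5, 0.38 for Gabbr1 and 0.37 for Gad1 (adjusted p = 0.0087, 0.011, 0.0386 and 0.045).

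With the index as a covariate, the changes at 0 h were smaller in size for each of the 9 genes named with their r above. They became 0.18 for Gabra3, −0.14 for Glra2, 0.08 for Glra3, −0.015 for Glrb, −0.09 for Abat, −0.07 for Slc32a1, 0.02 for Gabra4, −0.0088 for Gad2 and −0.13 for Gabrd. The sign turned for Glra2, Glrb and Gabra4. These 9 genes were picked for their relation to the index, which had a lower mean in CIE (3.15) than in Ctrl (3.85) at 0 h. A shift of their changes with the covariate was therefore largely fixed by that choice, and it tests no cause. The change became −0.34 for Gabra2 probeset 1443865_at (adjusted p = 0.0107). The brightest Gabra2 probeset was not clearly related to the index (r = 0.28, rho = 0.29, adjusted p = 0.165 and 0.15), and its change with the covariate was −0.32. How much the tissue sampled or the expression of the markers themselves contributed to the group differences was not tested beyond these values.

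**Figure D5:**
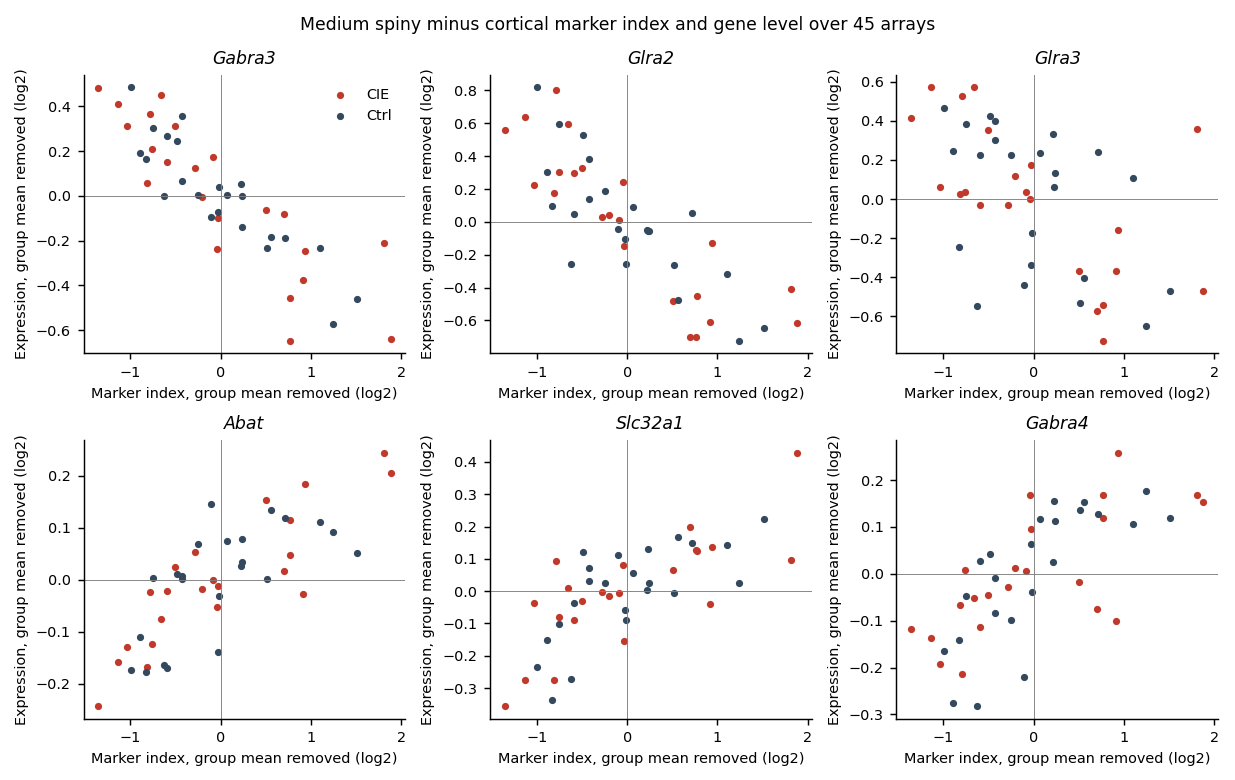
Log2 level of 6 genes in each of the 45 arrays (vertical axis) against the marker index (horizontal axis, mean of medium spiny minus mean of cortical pyramidal markers, log2), each with its group mean removed, CIE and Ctrl arrays in different colours. Gabra3, Glra2 and Glra3 decrease and Abat, Slc32a1 and Gabra4 increase as the index rises.

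Some dimmer probesets of these genes varied together across arrays. A total of 8 such probesets of 7 genes, chosen after their values were seen for an SD within groups over 0.25 and a mean over 7, were Gabra2 1421738_at, Gabrg3 1445846_at, Gabbr1 1422051_a_at, Gad1 1416562_at, Gad2 1421978_at, Slc12a2 1448780_at and 1417623_at, and Gphn 1426463_at. Over the 45 arrays, with group means removed, all 28 pairs had a positive r, given without a test since the set was chosen on these values, with r of 0.33 to 0.97 and a median of 0.72. Gabra2 1421738_at and Gad2 1421978_at, for example, had r = 0.94 and rho = 0.91, with r of 0.92 without the 2 farthest arrays and 0.94 with the hybridization sets removed. The relations of Gabrg3 1445846_at with Slc12a2 1448780_at and 1417623_at were the loosest, with r of 0.41 and 0.33 (rho 0.29 and 0.24) that became 0.16 and 0.08 without the 2 farthest arrays.

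Several of them were not clearly related to the brightest probeset of their own gene. Of 38 relations between a brightest and a dimmer probeset, those of Gad2 (r = −0.16, rho = −0.06), Gabra2 1421738_at (r = −0.15, rho = −0.04), Gabbr1 1422051_a_at (r = 0.12, rho = 0.03), Gad1 (r = 0.12, rho = 0.20) and Gphn 1426463_at (r = 0.06, rho = 0.16) did not pass, with adjusted p values of 0.432 to 0.772 for r. Gabrg3 1445846_at followed its brightest probeset loosely (r = 0.38, rho = 0.41, adjusted p = 0.0362 for r), as did Slc12a2 1417623_at (r = 0.46, adjusted p = 0.00727). Slc12a2 1448780_at did not pass for r (r = 0.33, adjusted p = 0.0667) but did for rho (rho = 0.41, adjusted p = 0.017). Gabra2 1443865_at had r = 0.52 and rho = 0.56 (adjusted p = 0.0022 for r), and the second probesets of Gabrb1, Gabrb2 and Gabrg1 had r of 0.81, 0.86 and 0.83. Other probesets outside the set of 8 were not clearly related to their brightest probeset either. Among these were Gabrb1 1443205_at (r = −0.08), Gabrb2 1428204_at (r = −0.11) and 1428205_x_at (r = −0.19), and Gabbr1 1437188_at (r = −0.02). The large but imprecise changes given above for Gabra2 1421738_at, Gad2 1421978_at and Slc12a2 1417623_at, as well as the changes of Gabrg3 1445846_at, belong to the set of 8 probesets. What it tracks was not tested.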

How the data were processed

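RNA was hybridized to Affymetrix whole-genome mouse arrays, 1 per mouse. The authors deposited log2 values, 1 per probeset and array, computed with RMA (version not given in the sources used here). Their methods describe background correction and quantile normalization by hybridization batch, a second quantile normalization over all arrays, and ComBat for what was left of the batches, so differences between batches, and some real differences, may have been reduced. Probesets were named from the platform annotation, which can be old: 34945 of 45037 had 1 symbol, 932 several and 9160 none, and genes were taken only from the first. Groups follow the sample labels. The members and all gene lists were chosen with earlier results of these data known, so counts over them support no claim of their own.

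Here limma 3.58.1 (R 4.3.3) was fitted to the 45 arrays, with 8 group means and no covariate, after the study's methods. It gave CIE minus Ctrl at each of 4 times, later changes minus that at 0 h, and moderated F tests over the 4 contrasts and over time within CIE and within Ctrl. P values were adjusted by Benjamini-Hochberg over all probesets of a contrast, and 0.01 was the threshold (0.05 is given beside it). They measure the spread between mice. Genes given in detail were those at or under 0.05 in a test, the 3 with the smallest p at each time, and those whose probesets differed in sign with an unadjusted p under 0.05 in one. Correlations were tested with scipy 1.17.1. The labels name no batch: arrays sharing 5 or more equal values (tolerance 2e-08) were taken as a hybridization set, giving 6 sets of 6 to 8 arrays, with Ctrl 0 h replicate 20 in none and both groups present in 5, 5, 5 and 6 sets at the 4 times. These sets are inferred and may differ from the authors' batches. In every fit with the sets as a block, replicate 20 had a block of its own and added nothing to any comparison. On simulated data for CIE minus Ctrl at 0 h, with 200 of 45037 probesets changed, the fit recovered 10% of changes of 0.2, 26% of 0.3, 66% of 0.5 and 96% of 1, with 0 false calls. Alternatives were a sets block, array weights, arrays of 1 time alone, a dim-probeset filter (mean below 6), other probeset rules, other eBayes and scaling settings, the marker index as a covariate, and leaving out each array.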

Additional observations from a re-analysis of the deposited data

Results flagged for a closer look

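A value lying far from the rest of its group, by Dixon's criterion, was found in 7 of 112 combinations of probeset and group examined, and chance alone marks about 1 in 20 groups. Gabra2 (1455444_at) was low in Ctrl 8 h replicate 79, at 9.49, where the other 4 arrays lay between 10.00 and 10.13. Gabra3 was low in Ctrl 7 d replicate 77, at 9.35, where the others lay between 9.81 and 10.06. Gabrg3 (1445846_at) was low in Ctrl 7 d replicate 62, at 7.18, the others lying between 8.20 and 8.54, and high in CIE 72 h replicate 33, at 7.73, the others lying between 7.36 and 7.42. Glra1 was low in Ctrl 72 h replicate 68, at 4.30 beside 4.50 to 4.54. Gad2 was low in CIE 0 h replicate 72, at 12.25 beside 12.53 to 12.68, and this array had the lowest marker index of CIE at 0 h (1.79). Slc12a5 was high in CIE 7 d replicate 13, at 13.11 beside 12.97 to 13.02. Ctrl 8 h replicate 79 likewise had the lowest index of its group (2.90). Ctrl 7 d replicate 77 and CIE 7 d replicate 13 had the highest of theirs (5.18 and 5.17). Ctrl 7 d replicate 62, CIE 72 h replicate 33 and Ctrl 72 h replicate 68 were at neither end of their groups. What these arrays share was not tested.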

How the results depend on the processing

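The labels pair no arrays. The inferred hybridization sets pair at most 1 CIE with 1 Ctrl array at each time, and the fit with these sets as a block and the differences within sets stand in for a paired analysis. The number of genes that passed at their brightest probeset stayed at 0 for every comparison under each alternative but those named next, and whenever 1 array was left out (0 to 0 in all cases). Taking each gene's probeset with the smallest p gave 1 gene at 0 h (Gabra2), 1 in the F test over the 4 contrasts (Gabrg3), 1 in the F test over time within CIE (Gabra2) and a median change at 8 h of 0.0548, by the construction of that choice. A threshold of 0.05 gave 1 gene at 0 h (Gad1). Leaving out 1 array moved the median change to between −0.036 and −0.014 at 0 h, −0.0092 and 0.024 at 8 h, −0.0035 and 0.022 at 72 h, and −0.026 and −0.0098 at 7 d. With the mean of all probesets of a gene, the sign turned at 8 h for Gabrg3 (−0.0519), Glra1 (−0.0073) and Gad2 (−0.0698), because their probesets disagree. The call of Gabra2 1443865_at at 0 h was also lost with array weights (adjusted p = 0.0257), with the 0 h arrays alone (0.0495) and with the marker index as a covariate (0.0107). Its F test over time within CIE was lost with the sets block (0.0137) and without CIE 0 h replicates 5, 26, 67 or 72 (up to 0.0168). Gabrg3 1445846_at passed with array weights at 72 h (0.0095) and 7 d (0.00501), beside 20 and 1 of all 45037 probesets called with these weights. Gphn 1430038_at passed over time within CIE with array weights (0.00937), without dim probesets (0.00875) and without CIE 0 h replicate 17, 72 h replicate 29 or 7 d replicates 13 or 27. The cause was not tested. Over all probesets, 717 calls at 0 h became 299 with the sets block and 309 with array weights. The block also gave Ctrl 0 h replicate 20 no weight. With array weights, 28 calls at 8 h became 119, and 0 calls at 72 h and 7 d became 20 and 1.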

Other observations

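Other genes of GABA and glycine handling that are not among those above (uptake, precursor supply, rho and pi subunits, assembly proteins and chloride kinases) were followed as a list of 27 measured genes, and none passed an adjusted p of 0.01 at any time. Unadjusted p values under 0.05 came to 5 higher and 1 lower at 0 h, 2 higher at 8 h, 2 higher at 72 h and 0 at 7 d, beside 18.4%, 8.04%, 4.56% and 1.97% of all genes in either direction. Wnk2, a kinase of the family that regulates the chloride cotransporters, had an F test over time within CIE with an adjusted p of 0.0339, beside 6.22% of all genes at 0.05 or less. Its mean in CIE was 9.68 ± 0.123, 9.65 ± 0.179, 9.41 ± 0.0663 and 9.43 ± 0.15 at 0 h, 8 h, 72 h and 7 d, against 9.47 ± 0.0531, 9.47 ± 0.147, 9.35 ± 0.0623 and 9.38 ± 0.198 in Ctrl (SD, n as above).

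Gabrr2, the rho2 subunit best known from the retina, was singled out after its values were seen. At 0 h its mean was 6.77 ± 1.15 in CIE and 5.78 ± 0.466 in Ctrl (SD, n = 6 each), a change of 0.99 (interval 0.35 to 1.63, limma adjusted p = 0.0696), and at 8 h it was 6.94 ± 0.17 in CIE and 6.08 ± 0.51 in Ctrl (n = 5 each), a change of 0.87 (0.16 to 1.57, limma adjusted p = 0.469). At 72 h and 7 d the changes were 0.01 and −0.01. The probeset lay below the array medians in every group mean but that of CIE at 8 h, which was level with them.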
